A study of Arabidopsis thaliana with 18 samples.

Results

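UDP-glycosyltransferases (UGTs) of Arabidopsis thaliana were followed through a treatment with 2 cyclopentenones in mutant and wild-type plants. The genes were chosen by name: every probe set that the array annotation assigned to exactly 1 gene with a symbol made of UGT and a digit was taken, without UGT73B1, UGT73B4, UGT73B5 and UGT73C1. This gave 43 genes, each with 1 probe set, on an array of 22810 probe sets that name 13350 genes singly. They belong to 11 families, and 3 further UGT probe sets were left out because the annotation gave them several genes. The study measured RNA in plant material on 18 single-colour arrays in 6 groups of 3 independent replicates. The groups were the triple mutant tga2-5-6 with phytoprostane A1 (PPA1), with oxo-phytodienoic acid (OPDA) and with the solvent, and the accession Col-0 with the same 3 treatments. Both compounds were given at 75 µM, the solvent control was 0.5% methanol in water, and every treatment lasted 4 h. The labels name neither the organ, the age of the plants nor the growth conditions. The name tga2-5-6 stands for mutations in the genes of the transcription factors TGA2, TGA5 and TGA6, which had 0 named probe sets, so these data hold no check of the mutant label through them.

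UGTs transfer a sugar from a UDP-sugar to a small molecule, which changes its solubility, its activity and where in the cell it is kept. Plants have many of them. Known acceptors in Arabidopsis include hormones, flavonoids, monolignols, glucosinolate precursors and foreign compounds. OPDA is made by enzymes from linolenic acid and is the precursor of jasmonic acid, while phytoprostanes arise from linolenic acid by oxidation with no enzyme involved. Each has a reactive cyclopentenone ring, and a hydroxyl group on a side chain sets PPA1 apart from OPDA. TGA factors are bZIP proteins known for a part in salicylic acid and detoxification responses. The design asks how far responses to such compounds depend on TGA factors.

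Values are the authors' intensities, and differences are log2 differences ± standard error from 1 limma model over all 18 arrays. A gene passed a comparison with a Benjamini-Hochberg adjusted p under 0.05 over all 21869 probe sets tested and a change of at least 2-fold. All 43 UGT genes were kept by a filter that asked for an intensity of at least 16 on at least 3 arrays, but 6 of them had a mean under 16 over all arrays, and 28 stood at 16 or above on every array. Median intensities were 159 to 184 per array, and the number of arrays limits the precision. Labels call the replicates independent but do not say whether they came from separate cultures, so the p-values measure the spread between these samples. Of 7 root markers 3 had a named probe set. The root protein gene PYK10 averaged 14882, 19049 and 17412 with PPA1, OPDA and solvent in tga2-5-6, against 16078, 20490 and 17840 in Col-0. Of 8 markers of green tissue 1 had a named probe set, RCA (Rubisco activase), with group means from 15235 to 20409. PYK10 and RCA were thus high in every group. The other root markers, the root-hair expansin genes EXPA7 and EXPA18, had far lower signals, and these were lower still with the compounds. EXPA18 averaged 134 with PPA1 and 107 with OPDA against 542 with solvent in tga2-5-6, and 123 and 98.6 against 483 in Col-0, and it passed in all 4 responses. EXPA7 averaged 89.8 and 115 against 242 in tga2-5-6, and 60.5 and 86.6 against 303 in Col-0, and it passed with PPA1 in Col-0. Summed over the 3 root markers, intensities ran from 12803 to 16355 with PPA1, 17310 to 21285 with OPDA and 16604 to 19139 with solvent in tga2-5-6. The same sums in Col-0 ran from 15388 to 18001, 20060 to 21723 and 17269 to 20511. PYK10 made up nearly all of each sum, so the sums do not show the falls of EXPA7 and EXPA18. RNA quality probes, for actin and GAPDH, were read as well. The ratio of 3′ to 5′ actin signal was 33.3, 26.7 and 28.2 with PPA1 and 34.0, 31.9 and 25.2 with OPDA in tga2-5-6, against 66.6, 44.6 and 33.8 with solvent, so that the PPA1 and solvent arrays did not overlap. In Col-0 it was 31.0, 25.02 and 30.0 with PPA1 and 25.1, 27.6 and 31.5 with OPDA, against 47.4, 30.9 and 24.9 with solvent. Both compounds overlapped solvent there, and OPDA did so narrowly in tga2-5-6, at 34.0 against 33.8. The GAPDH ratio in tga2-5-6 ran from 0.87 to 1.01 with PPA1, 1.21 to 1.71 with OPDA and 1.00 to 1.84 with solvent. In Col-0 it ran from 0.88 to 1.59, 1.15 to 1.99 and 1.14 to 1.35. For GAPDH every compound group overlapped its solvent arrays. With PPA1 in tga2-5-6 this was only through solvent replicate 3, at 1.003 against 1.005 for PPA1 replicate 2. The other solvent arrays there stood at 1.79 and 1.84. Control replicate 1 had the highest actin ratio in each genotype, and calls that ended without it are named beside the genes. The part of root-hair RNA or of RNA quality in the UGT values was not tested, and fewer cells of a type cannot be told apart from less RNA per cell.

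The question behind the first comparisons is how each compound changed UGT RNA levels within a genotype. More of the genes passed with OPDA than with PPA1 in both genotypes, and 9 of the 11 genes that passed with OPDA in Col-0 were higher. In tga2-5-6, 3 of 43 genes passed with PPA1, 2 higher and 1 lower (6.98%, against 2.71% of all probe sets, 1.43% higher and 1.28% lower). Without tga2-5-6 control replicate 1, the array with the highest actin ratio of that genotype, 0 of 43 passed with PPA1. With OPDA, 8 of 43 passed in tga2-5-6, 7 higher and 1 lower (18.6%, against 6.47% of all probe sets, 3.40% higher and 3.06% lower). The solvent arrays of tga2-5-6, on which both comparisons rest, had the higher 3′ to 5′ actin ratios given above. In Col-0, 7 passed with PPA1, 5 higher and 2 lower (16.3%, against 2.50% of all probe sets, 1.64% higher and 0.860% lower). With OPDA 11 passed in Col-0, 9 higher and 2 lower (25.6%, against 4.95% of all probe sets, 2.85% higher and 2.10% lower). Whether the number of genes differed between compounds or genotypes was not tested. All 8 genes that passed with OPDA in tga2-5-6 were among the 11 that passed in Col-0, and 2 of the 3 PPA1 genes of tga2-5-6 were among the 7 of Col-0. The median log2 difference of the 43 genes was -0.10 with PPA1 and 0.13 with OPDA in tga2-5-6, against 0.13 and 0.12 in Col-0. Over all probe sets these medians were -0.13, -0.17, -0.05 and -0.12. In the comparisons with solvent 2 genes passed in all 4 responses, UGT87A2 upward and UGT71C1 downward. The PPA1 call of each in tga2-5-6 was lost without any 1 of 4 of the 6 arrays and when only the arrays compared were fitted. Neither the overlaps between genotypes nor the count in all 4 responses was computed over all probe sets. They are thus not shown to be particular to UGT genes. The PPA1 and OPDA responses of a genotype share its 3 solvent arrays.

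**Figure D1:**
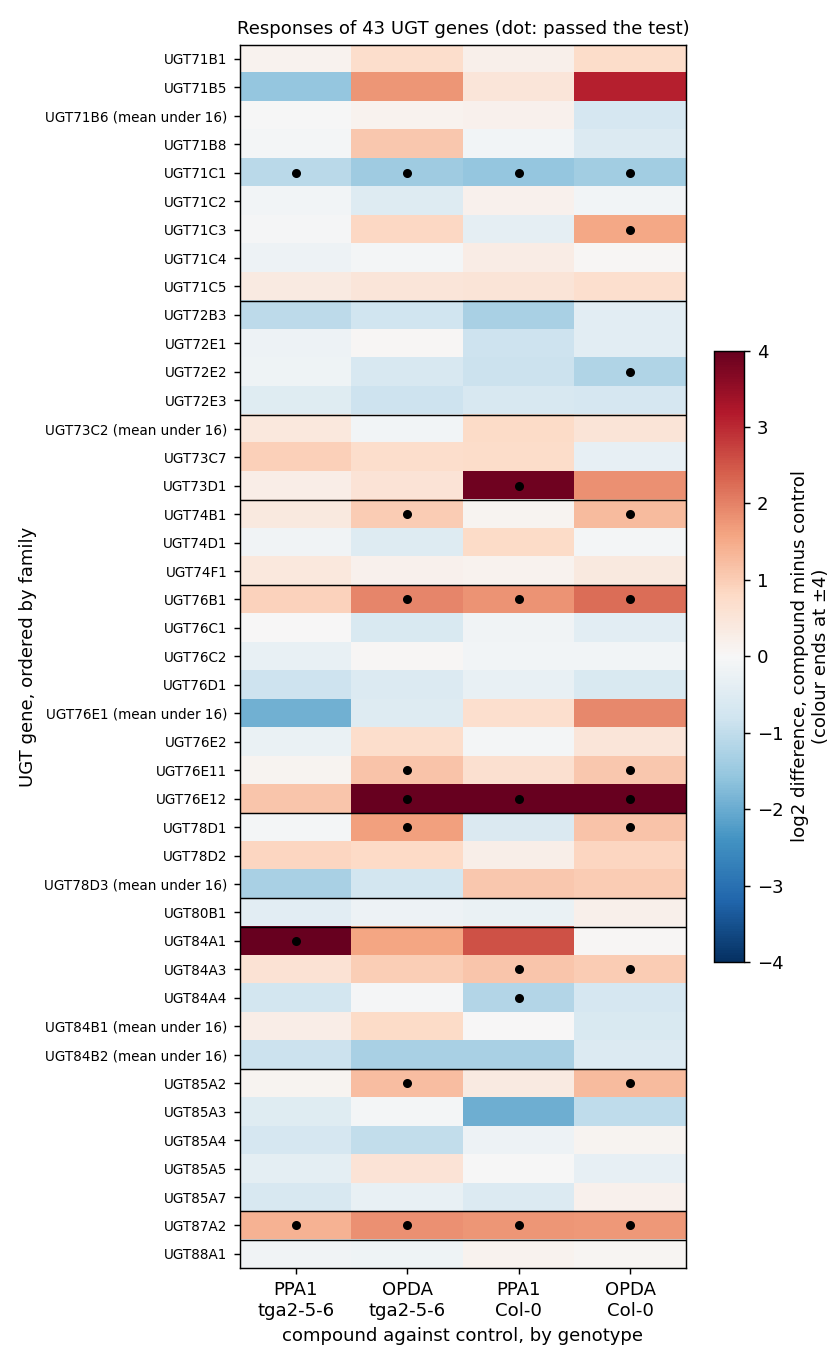
Log2 differences, compound minus solvent control, of the 43 UGT genes (rows, ordered by family with lines between families) for PPA1 and OPDA in tga2-5-6 and in Col-0 (columns), with a dot where a gene passed. Colours end at ±4, so UGT76E12 with OPDA, at 5.38 in tga2-5-6 and 7.72 in Col-0, lies beyond the scale; dots are most frequent in the OPDA columns, with 8 in tga2-5-6 and 11 in Col-0.

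UGT87A2 encodes a glycosyltransferase known for a role in flowering time, and it rose with both compounds in both genotypes. In tga2-5-6 it read 1516, 1462 and 871 with PPA1 and 1629, 1763 and 1634 with OPDA, against 350, 762 and 392 with solvent. In Col-0 it read 1687, 1988 and 2615 with PPA1 and 1616, 1895 and 2595 with OPDA, against 498, 674 and 664 with solvent. Every treated array lay above every solvent array of its genotype. The rises with PPA1 were 1.40 ± 0.30 in tga2-5-6 (adjusted p = 0.0197) and 1.77 ± 0.30 in Col-0 (adjusted p = 0.00428). With OPDA they were 1.83 ± 0.30 in tga2-5-6 (adjusted p = 0.00152) and 1.72 ± 0.30 in Col-0 (adjusted p = 0.00296). The PPA1 call in tga2-5-6 was lost without control replicate 1 or 3 or PPA1 replicate 1 or 2 of tga2-5-6 (differences of 1.19 to 1.75 over the 6 arrays left out in turn, adjusted p up to 0.0889). When only the arrays compared were fitted, the PPA1 call in tga2-5-6 was lost (adjusted p = 0.200), and the OPDA call in tga2-5-6 was lost at an adjusted p of 0.0501.

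UGT76B1, which glucosylates isoleucic acid, salicylic acid and N-hydroxypipecolic acid, rose with OPDA in both genotypes and with PPA1 in Col-0. With PPA1 it read 1252, 706 and 660 in tga2-5-6, against 432, 596 and 336 with solvent. With OPDA it reached 1851, 1397 and 1966 there (1.96 ± 0.28, adjusted p = 5.5e-04). In Col-0 it read 756, 621 and 632 with PPA1 and 1227, 767 and 801 with OPDA, against 215, 201 and 163 with solvent (1.80 ± 0.28, adjusted p = 0.00208, and 2.25 ± 0.28, adjusted p = 2.4e-04). The PPA1 difference in tga2-5-6 was 0.92 ± 0.28 and did not pass (adjusted p = 0.0779). It was 1.13 and passed without tga2-5-6 control replicate 2 (adjusted p = 0.0470). The solvent arrays of tga2-5-6 all lay above those of Col-0.

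UGT76E11 and UGT76E12 belong to the UGT76E group, members of which can glucosylate hydroxylated jasmonic acid. UGT76E12 read 52.2, 125 and 13.0 with PPA1 and 916, 1064 and 616 with OPDA in tga2-5-6, against 12.5, 21.8 and 30.8 with solvent. In Col-0 it read 78.3, 153 and 220 with PPA1 and 718, 1009 and 1892 with OPDA, against 2.50, 34.6 and 1.69 with solvent. Its OPDA arrays thus stood far above all solvent arrays in both genotypes (adjusted p = 0.00351 in tga2-5-6 and 3.5e-04 in Col-0). Solvent levels were near or under 16, so the size of its log2 difference depends on noise at low intensity. With PPA1 it passed in Col-0 (adjusted p = 0.0176) but not in tga2-5-6 (adjusted p = 0.583), where the arrays overlapped. The Col-0 call was lost without control replicate 1 or 3 or PPA1 replicate 2 or 3 of Col-0 (adjusted p up to 0.0880), and when only the arrays compared were fitted (adjusted p = 0.182). UGT76E11 also rose with OPDA in both genotypes. It read 588, 610 and 428 with OPDA in tga2-5-6, against 264, 260 and 212 with solvent (1.14 ± 0.22, adjusted p = 0.00424, and 0.0515 when only the arrays compared were fitted). The Col-0 values were 833, 716 and 963 with OPDA, against 354, 428 and 412 with solvent (1.07 ± 0.22, adjusted p = 0.00752). The Col-0 change was 0.96 at its lowest and under 2-fold without control replicate 1 or OPDA replicate 3 of Col-0. PPA1 left UGT76E11 at 224, 359 and 221 in tga2-5-6 (0.10 ± 0.22, adjusted p = 0.841) and at 492, 656 and 711 in Col-0 (0.63 ± 0.22, adjusted p = 0.157).

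**Figure D2:**
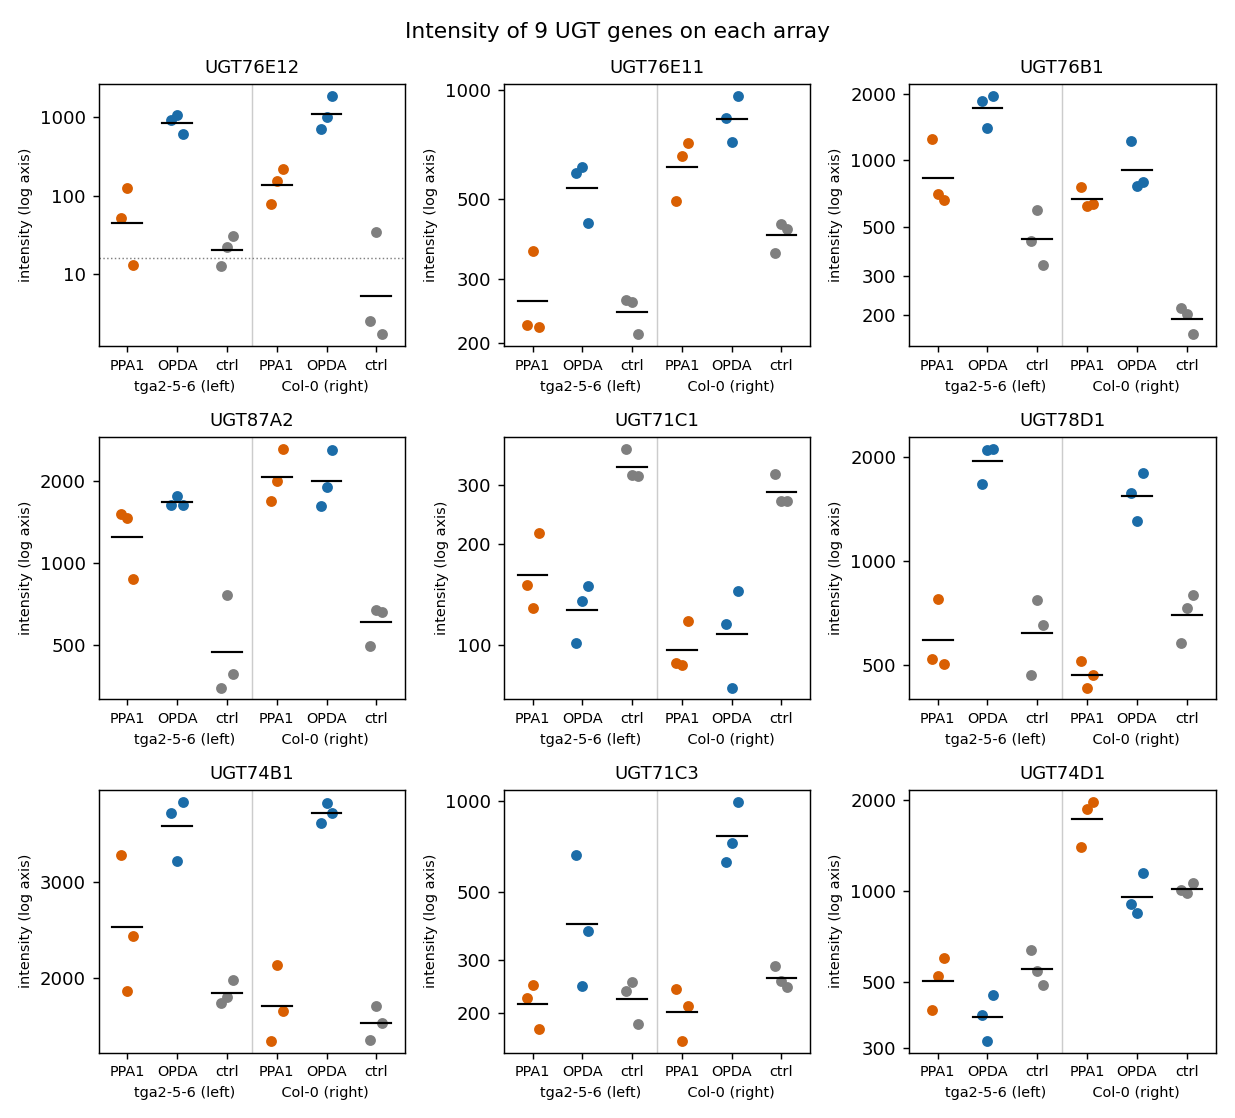
Intensity (log axes that differ between panels) of 9 UGT genes on each array, with PPA1 (orange), OPDA (blue) and solvent control (grey, ctrl) for tga2-5-6 left and Col-0 right; black lines are means on the log2 scale (n = 3) and the dotted line marks 16. UGT78D1 stood between 1308 and 2113 on the 6 OPDA arrays and at or below 799 on the other 12, and UGT71C1 was lower on all 12 compound arrays than on the 6 solvent arrays.

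Other genes rose with OPDA and did not pass with PPA1. UGT78D1, a flavonol 3-O-rhamnosyltransferase, read 1671, 2095 and 2113 with OPDA in tga2-5-6, against 468, 773 and 655 with solvent (1.66 ± 0.22, adjusted p = 3.9e-04). In Col-0 it read 1568, 1308 and 1802 with OPDA, against 580, 733 and 799 (1.15 ± 0.22, adjusted p = 0.00511). With PPA1 it was at 521, 778 and 504 in tga2-5-6 and at 514, 430 and 467 in Col-0, where it lay below the solvent arrays without passing (-0.57 ± 0.22). UGT74B1, which glucosylates thiohydroximates in glucosinolate synthesis, had the highest mean intensity of the 43 genes (2618). It read 4003, 3267 and 4199 with OPDA in tga2-5-6, against 1803, 1842 and 1986 with solvent (1.02 ± 0.19, adjusted p = 0.00307). The Col-0 values were 3845, 4180 and 4009 with OPDA, against 1542, 1776 and 1655 with solvent (1.28 ± 0.19, adjusted p = 7.6e-04). The tga2-5-6 change lay close to 2-fold. It fell under it (0.95 at the lowest) without control replicate 1 or OPDA replicate 1 or 3 of tga2-5-6, and also after quantile normalization. UGT85A2 read 1186, 970 and 1348 with OPDA in tga2-5-6, against 497, 429 and 566 with solvent (1.23 ± 0.25, adjusted p = 0.00580). Its Col-0 values were 941, 1134 and 1774 with OPDA, against 457, 506 and 586 (1.27 ± 0.25, adjusted p = 0.00578, and 0.0767 when only the arrays compared were fitted). UGT71C3, which glucosylates methyl salicylate, passed with OPDA in Col-0 at 628, 728 and 992, against 286, 256 and 245 with solvent (1.55 ± 0.30, adjusted p = 0.00549). In tga2-5-6 its OPDA arrays spread from 245 to 661 and overlapped the solvent arrays at 237, 254 and 184 (0.81 ± 0.30, adjusted p = 0.101). Without tga2-5-6 OPDA replicate 2 that difference was 1.15 and passed (adjusted p = 0.0200).

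The UGT84A genes, whose products form glucose esters of hydroxycinnamic acids, did not move as 1 group. UGT84A1, UGT84A3 and UGT84A4 follow each other on the chromosome with no other coding gene between them in the annotation (TAIR10.1). UGT84A3 read 679, 1292 and 1465 with PPA1 and 924, 1024 and 1096 with OPDA in Col-0, against 394, 583 and 541 with solvent (1.12 ± 0.27, adjusted p = 0.0338, and 1.02 ± 0.27, adjusted p = 0.0313). Each call was lost without any 1 of 5 of its 6 arrays (the exceptions were Col-0 PPA1 replicate 1 and Col-0 control replicate 2), with differences of 0.91 to 1.46 and 0.85 to 1.13. Both were also lost when only the arrays compared were fitted (adjusted p = 0.246 with PPA1 and 0.0600 with OPDA). In tga2-5-6 the OPDA difference was 0.98 ± 0.27 (adjusted p = 0.0298), just under 2-fold. It was 1.02 after quantile normalization, 1.09 with arrays centred on their medians and 1.18 without tga2-5-6 control replicate 2, and passed in each. UGT84A4 fell with PPA1 in Col-0, at 92.8, 110 and 108 against 253, 225 and 226 with solvent (-1.18 ± 0.20, adjusted p = 0.00369). In tga2-5-6 it read 88.1, 120 and 114 with PPA1, against 224, 168 and 150 with solvent, which did not pass (-0.74). UGT84A1 read 160, 189 and 108 with PPA1 in tga2-5-6, against 3.28, 6.24 and 3.64 with solvent, and passed (adjusted p = 0.0138). That call was lost without tga2-5-6 control replicate 1 (adjusted p = 0.0561). In Col-0 it read 43.6, 88.1 and 48.0 with PPA1, against 2.24, 13.7 and 30.2 with solvent, and did not pass (adjusted p = 0.239). With a floor of 16 in place of 1 it passed there, at 1.52 (adjusted p = 0.0110).

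Genes that fell included UGT71C1, a member of a subfamily whose products act on flavonoids and hydroxycinnamic acids in vitro. In tga2-5-6 it read 151, 129 and 216 with PPA1 and 101, 136 and 149 with OPDA, against 384, 320 and 318 with solvent. The Col-0 values were 88.2, 87.1 and 118 with PPA1 and 115, 74.7 and 145 with OPDA, against 322, 267 and 269 with solvent. All 12 treated arrays lay below all 6 solvent arrays. The differences with PPA1 were -1.08 ± 0.25 in tga2-5-6 (adjusted p = 0.0291) and -1.56 ± 0.25 in Col-0 (adjusted p = 0.00297), and with OPDA -1.42 ± 0.25 (adjusted p = 0.00255) and -1.40 ± 0.25 (adjusted p = 0.00337). The PPA1 call in tga2-5-6 was lost with arrays centred on their medians and without control replicate 1 or 3 or PPA1 replicate 1 or 2 of tga2-5-6 (-0.91 at the weakest, adjusted p up to 0.108). When only the arrays compared were fitted, that call (adjusted p = 0.145) and the OPDA call in Col-0 (adjusted p = 0.0621) were lost. UGT72E2, which glucosylates the monolignol coniferyl alcohol, fell with OPDA in Col-0, at 539, 828 and 709 against 1815, 1594 and 1369 with solvent (-1.22 ± 0.25, adjusted p = 0.00803). With OPDA in tga2-5-6 it read 1035, 828 and 1112, against 1396, 1487 and 1705 (-0.63 ± 0.25), and did not pass. PPA1 gave -0.16 in tga2-5-6 and -0.86 in Col-0, neither of which passed. Without Col-0 PPA1 replicate 3 the Col-0 difference was -1.12 and passed (adjusted p = 0.0318).

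UGT73D1, a weakly detected gene, passed with PPA1 in Col-0. It read 121, 77.3 and 51.6 with PPA1 in Col-0, against 28.0, 2.98 and 1.81 with solvent (adjusted p = 0.0123). Without control replicate 2 or 3 of Col-0 the call was lost (adjusted p up to 0.0570), and likewise when only the arrays compared were fitted (adjusted p = 0.207). Its OPDA difference in Col-0 passed without Col-0 control replicate 1 (3.03, adjusted p = 0.00281). In tga2-5-6 it read 86.9, 52.6 and 70.6 with PPA1 and 80.3, 88.9 and 83.4 with OPDA, against 62.1, 55.3 and 55.8 with solvent. The solvent arrays of tga2-5-6 thus lay within the range of the PPA1 arrays of Col-0, near its low end, a comparison that was not tested.

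At matched dose and time PPA1 was then compared with OPDA, 1 pair of compounds in 2 genotypes, with p-values adjusted over all probe sets. Among the 43, each gene that passed was lower with PPA1. That single direction holds for the chosen set only. UGT73B5, set aside by name, passed as higher with PPA1 than with OPDA in tga2-5-6 (1.64 ± 0.36, adjusted p = 0.0157) and in Col-0 (2.21 ± 0.36, adjusted p = 0.00211). In tga2-5-6, 5 of 43 passed and all 5 were lower (11.6%, against 3.57% of all probe sets, 1.25% higher and 2.31% lower). In Col-0, 3 of 43 passed and all 3 were lower (6.98%, against 3.57% of all probe sets, 1.39% higher and 2.18% lower). UGT78D1 differed in both genotypes, by -1.73 ± 0.22 in tga2-5-6 (adjusted p = 3.8e-04) and -1.72 ± 0.22 in Col-0 (adjusted p = 3.2e-04). UGT76E12 was lower with PPA1 in tga2-5-6, with means of 63.5 ± 56.9 with PPA1 and 865 ± 228 with OPDA (SD, n = 3 each, -4.26 ± 1.00, adjusted p = 0.0218). In Col-0 the means were 150 ± 71.0 with PPA1 and 1206 ± 611 with OPDA, and it did not pass (-3.01, 95% interval -5.15 to -0.86, adjusted p = 0.115). A floor of 16 left that difference at -3.01 and it then passed (adjusted p = 0.00725).

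Other genes passed in 1 genotype. UGT76E11 (-1.04 ± 0.22, adjusted p = 0.0119), UGT85A2 (-1.11 ± 0.25, adjusted p = 0.0171) and UGT76B1 (-1.04 ± 0.28, adjusted p = 0.0425) passed in tga2-5-6. Their Col-0 differences were -0.44 (95% interval -0.91 to 0.03), -0.91 (-1.45 to -0.38) and -0.45 (-1.04 to 0.15). UGT71C3 (-1.93 ± 0.30, adjusted p = 0.00149) and UGT74B1 (-1.17 ± 0.19, adjusted p = 0.00165) passed in Col-0. Their tga2-5-6 differences were -0.87 (-1.52 to -0.22) and -0.62 (-1.02 to -0.22). Without tga2-5-6 OPDA replicate 2, UGT71C3 passed there too (-1.21, adjusted p = 0.0271). Whether the compound difference itself differed between genotypes was not tested. The tga2-5-6 calls of UGT76E12, UGT76E11, UGT76B1 and UGT85A2 were each lost without any 1 of 3 to 5 of the 6 arrays, among them OPDA replicate 1 and PPA1 replicate 3 each time. Adjusted p then ran up to 0.109, 0.0645, 0.183 and 0.0834. These 4 calls were also lost when only the arrays compared were fitted (adjusted p = 0.0854, 0.144, 0.185 and 0.0660). Leaving out OPDA replicate 1 of Col-0 made UGT85A2 pass in Col-0 (-1.11, adjusted p = 0.0304), and leaving out PPA1 replicate 1 made UGT74D1 pass as higher with PPA1 (1.01, adjusted p = 0.0126).

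For the genes that responded to both compounds the interval of the difference is given here. In UGT87A2 it was -0.43 in tga2-5-6 (95% interval -1.08 to 0.22) and 0.05 in Col-0 (-0.60 to 0.70). UGT71C1 differed by 0.34 in tga2-5-6 (-0.20 to 0.88) and -0.16 in Col-0 (-0.70 to 0.38). UGT84A3 differed by -0.40 in tga2-5-6 (-0.98 to 0.18) and 0.10 in Col-0 (-0.47 to 0.68). These intervals still allow differences of up to about 2-fold. UGT74D1, which glucosylates auxins, was higher with PPA1 in Col-0 at 1397, 1876 and 1976, against 905, 846 and 1143 with OPDA, a change short of 2-fold (0.85 ± 0.19, adjusted p = 0.0192). UGT84A1 did not pass and had intervals above 0 in both genotypes (3.55, 1.33 to 5.77, adjusted p = 0.0649 in tga2-5-6; 2.51, 0.29 to 4.73, adjusted p = 0.221 in Col-0). With a floor of 16 it passed in both, at 2.72 and 1.65, and with an intensity trend in the variance it passed in tga2-5-6 (adjusted p = 0.0327). The same floor made UGT73D1 pass in Col-0, at 1.75.

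**Figure D3:**
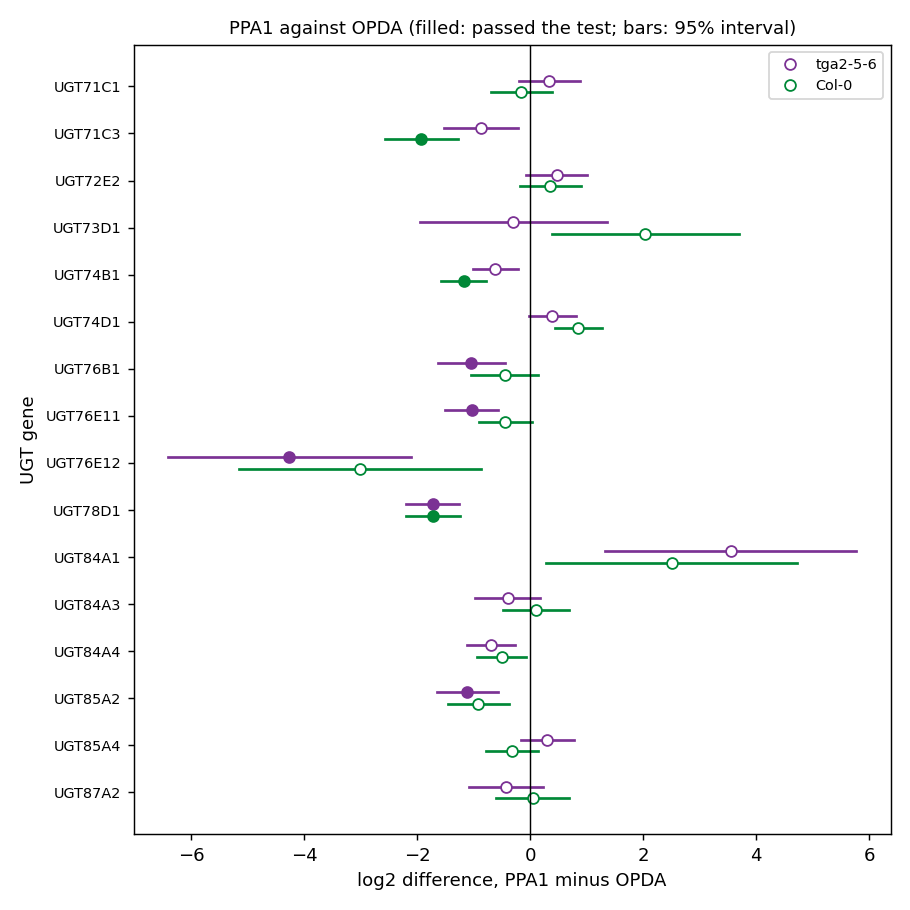
Log2 difference, PPA1 minus OPDA, with 95% intervals (bars) for the 16 UGT genes that passed in at least 1 comparison, in tga2-5-6 (purple, upper) and Col-0 (green, lower); filled points passed. UGT78D1 lies at -1.73 and -1.72, UGT87A2 and UGT71C1 have intervals that cover 0 in both genotypes, and UGT84A1 has wide intervals above 0.

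The genotypes were compared within each treatment to ask where UGT levels differed between tga2-5-6 and Col-0. Whether such a difference came from the loss of the TGA factors was not tested. The clearest difference was in UGT74D1. With PPA1 it read 402, 523 and 600 in tga2-5-6, against 1397, 1876 and 1976 in Col-0 (-1.79 ± 0.19, adjusted p = 2.3e-04). With OPDA it read 388, 318 and 451 in tga2-5-6, against 905, 846 and 1143 in Col-0 (-1.32 ± 0.19, adjusted p = 0.00417). Without compound it read 638, 542 and 486 in tga2-5-6, against 1009, 980 and 1061 in Col-0, which did not pass (-0.88 ± 0.19, adjusted p = 0.0622). Every tga2-5-6 array lay below every Col-0 array. Both calls held without each array in turn but not when only the arrays compared were fitted (adjusted p = 0.0634 and 0.137).

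Under PPA1, 3 of 43 genes passed between genotypes, all lower in tga2-5-6 (6.98%, against 1.57% of all probe sets, 0.690% higher and 0.883% lower). Beside UGT74D1 these were UGT76E11, at 224, 359 and 221 in tga2-5-6 against 492, 656 and 711 in Col-0 (-1.23 ± 0.22, adjusted p = 0.00742, and 0.183 when only the arrays compared were fitted), and UGT84A3. UGT84A3 read 451, 421 and 443 in tga2-5-6 against 679, 1292 and 1465 in Col-0 (-1.31 ± 0.27, adjusted p = 0.0204), a call lost without any 1 array except Col-0 PPA1 replicate 1 (adjusted p up to 0.0914) and when only the arrays compared were fitted (adjusted p = 0.229). Under OPDA, 2 of 43 passed, both lower in tga2-5-6 (4.65%, against 0.787% of all probe sets, 0.384% higher and 0.402% lower), UGT74D1 and UGT85A4. UGT85A4 read 126, 77.3 and 108 in tga2-5-6 against 238, 183 and 205 in Col-0 (-1.03 ± 0.22, adjusted p = 0.0400). Its call was lost without any 1 array except tga2-5-6 OPDA replicate 1 (adjusted p up to 0.153), with the replicate number as a block (adjusted p = 0.0682) and when only the arrays compared were fitted (adjusted p = 0.246). Against solvent in tga2-5-6 its OPDA difference was -0.98, under 2-fold, and it passed without tga2-5-6 control replicate 1 or 2 or OPDA replicate 1 or 3 (-1.13 at the strongest). Leaving out tga2-5-6 OPDA replicate 1 made UGT71C3 pass as lower in tga2-5-6 (-1.35, adjusted p = 0.0365). With a floor of 16, UGT84A1 was higher in tga2-5-6 under PPA1 (1.38) and UGT73D1 under OPDA (1.85).

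Without compound, 0 of 43 UGT genes passed in limma (0.535% of all probe sets did, 0.297% higher and 0.238% lower). UGT76B1 read 432, 596 and 336 in tga2-5-6 against 215, 201 and 163 in Col-0 (1.21 ± 0.28, adjusted p = 0.0724). UGT73D1 read 62.1, 55.3 and 55.8 in tga2-5-6 against 28.0, 2.98 and 1.81 in Col-0 (adjusted p = 0.0685). Both passed with a floor of 16 (adjusted p = 0.0485 and 0.0247) and with an intensity trend in the variance (adjusted p = 0.00974 and 0.0180). UGT73D1 also passed without Col-0 control replicate 1 (adjusted p = 0.00107).

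Whether the response itself differed between genotypes was tested by subtracting the Col-0 response from the tga2-5-6 response. For PPA1 0 of 43 UGT genes passed in limma (0.00915% of all probe sets did). UGT73D1 had the smallest adjusted p of the 43 (0.389), which was 0.0383 without Col-0 control replicate 1. In UGT74D1 the PPA1 response was -0.14 in tga2-5-6 and 0.77 in Col-0, a difference of -0.91 (95% interval -1.50 to -0.31, adjusted p = 0.399). UGT76B1 differed by -0.88 (-1.72 to -0.04, adjusted p = 0.655). For OPDA 0 of 43 and 0 of all probe sets passed in limma. UGT85A4 had the smallest adjusted p (0.637), at -1.10 (-1.75 to -0.44). UGT87A2 differed by -0.36 (-1.28 to 0.55) for PPA1 and 0.11 (-0.81 to 1.03) for OPDA. UGT78D1 differed by 0.51 for OPDA (-0.16 to 1.17).

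**Figure D4:**
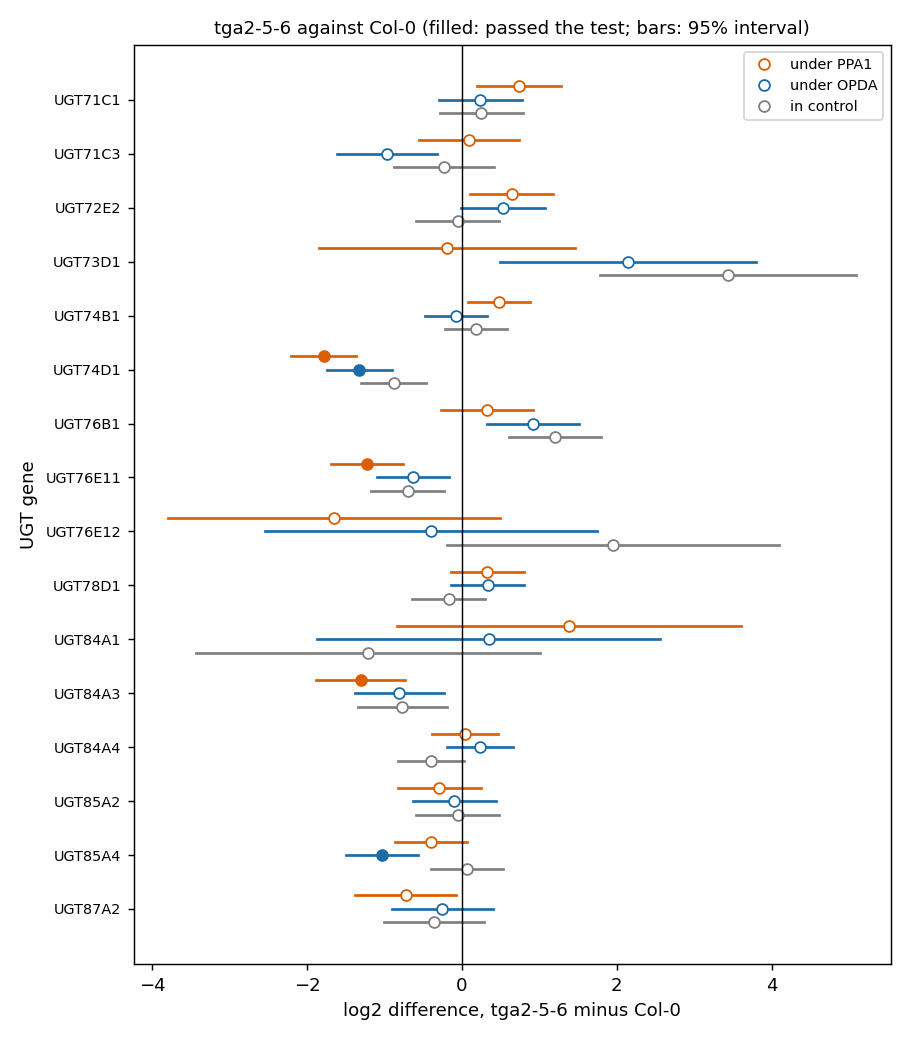
Log2 difference, tga2-5-6 minus Col-0, with 95% intervals (bars) for the 16 UGT genes that passed in at least 1 comparison, under PPA1 (orange), under OPDA (blue) and in solvent control (grey); filled points passed. All 3 intervals of UGT74D1 lie below 0, at -1.79, -1.32 and -0.88, and UGT73D1 lies at 3.44 in control and -0.19 under PPA1.

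By family, the 8 UGT76 genes held 3 that rose with OPDA in each genotype, and 0 in tga2-5-6 and 2 in Col-0 that rose with PPA1. Of all probe sets, 3.40% rose with OPDA in tga2-5-6 and 2.85% in Col-0, and 1.43% and 1.64% with PPA1. The shares that fell were 3.06% and 2.10% with OPDA, and 1.28% and 0.860% with PPA1. The family median with OPDA was 0.38 in tga2-5-6 and 0.78 in Col-0, and its lowest member was at -0.62 in each genotype. The 4 UGT72 genes, which include monolignol glucosyltransferases, had medians of -0.34 with PPA1 and -0.71 with OPDA in tga2-5-6 and of -0.85 and -0.54 in Col-0, and 1 of the 4 passed in any response, UGT72E2. These medians leave out UGT72B1 (GT72B1), which is of the same family but not among the 43 by its symbol. It went the other way, with 1.37 and 1.07 in tga2-5-6, and 1.53 and 0.83 in Col-0. All but the last of these passed. The 9 UGT71 genes had medians of -0.07 and 0.49 in tga2-5-6, and 0.17 and 0.06 in Col-0. They include 1 gene that rose in Col-0 and 1 that fell in each response. In the UGT78 family, whose products glycosylate flavonols and anthocyanidins, UGT78D1 rose with OPDA, and UGT78D2, the flavonoid 3-O-glucosyltransferase, stayed short of 2-fold at 0.78 in tga2-5-6 (adjusted p = 0.0427) and 0.85 in Col-0 (adjusted p = 0.0379). Of the 5 UGT85 genes 1 passed in the responses, UGT85A2. The families UGT80, UGT87 and UGT88 had 1 member each. Over all probe sets the medians were -0.13 with PPA1 and -0.17 with OPDA in tga2-5-6, and -0.05 and -0.12 in Col-0. The UGT76 and UGT71 medians include UGT76E1 and UGT71B6, whose mean intensities were 11.7 and 14.3. The family medians are descriptions of the genes named on the array, and no family was tested as a group.

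In the annotation's gene order 20 of the 43 genes lie next to another of the 43, in 8 runs. UGT71C3 rose with OPDA in Col-0, and its neighbours UGT71C4 and UGT71C5 gave 0.06 (adjusted p = 0.878) and 0.67 (adjusted p = 0.0110) there, both under 2-fold. UGT71C1 fell in every response, and the adjacent UGT71C2 gave -0.51 to 0.17 and passed in none. UGT85A2 rose with OPDA, and the UGT85A3, UGT85A5 and UGT85A7 genes of the same run, with mean intensities of 32.1 to 46.7, did not pass. The adjacent UGT76C1 and UGT76C2 passed in no response. Whether neighbours differed from each other was not tested, and hybridisation between close relatives on these probe sets was not examined.

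In all, 16 of the 43 genes passed in at least 1 comparison and 27 in none, a share not computed over all probe sets. Of the 27, 24 passed under no alternative setting or left-out array either, and 3 did: UGT71B5, UGT72B3 and UGT76E2, all 3 named after their values were seen. Of genes for abscisic acid conjugation, UGT71C5 gave 0.37 with PPA1 and 0.49 with OPDA in tga2-5-6, and 0.50 and 0.67 in Col-0, without passing, and UGT71B6 had a mean under 16. The cytokinin N-glucosyltransferase genes UGT76C1 and UGT76C2 ranged from -0.62 to 0.06 over the 4 responses. UGT74F1, for a salicylic acid glucosyltransferase, ranged from 0.16 to 0.41, and UGT76D1, whose product acts on dihydroxybenzoic acids, from -0.83 to -0.28. UGT72E1 and UGT72E3, relatives of UGT72E2, ranged from -0.84 to 0.03. The auxin glucosyltransferase gene UGT84B1 had the lowest mean intensity of all, 9.21, and UGT84B2, UGT73C2, UGT78D3 and UGT76E1 were under 16 as well. UGT80B1, a sterol glucosyltransferase gene, ranged from -0.43 to 0.20. UGT88A1 was the second strongest signal with a mean of 2113 and ranged from -0.18 to 0.13. UGT71C4, the UGT71 gene with the highest mean (562), ranged from -0.20 to 0.31. UGT71B1, whose product acts on flavonoids in vitro, gave 0.69 in tga2-5-6 and 0.73 in Col-0 with OPDA and did not pass. UGT71B5, named after its values were seen, did not pass with OPDA at 266, 198 and 252 in tga2-5-6 against 82.6, 112 and 35.6 with solvent (adjusted p = 0.274). Its Col-0 arrays read 93.6, 122 and 114 with OPDA, against 12.1, 2.92 and 58.4 (adjusted p = 0.0691). With a floor of 16 its OPDA difference in Col-0 passed at 2.15 (adjusted p = 0.0398), as it did with an intensity trend in the variance (3.10, adjusted p = 0.0280) and without Col-0 control replicate 3 (4.20, adjusted p = 0.0171). PPA1 minus OPDA for UGT71B5 passed with the floor at -3.05 in tga2-5-6 (adjusted p = 0.00627) and -2.17 in Col-0 (adjusted p = 0.0495). In tga2-5-6 it also passed with the trend (-3.34, adjusted p = 0.0230) and without PPA1 replicate 1 (-4.03, adjusted p = 0.0494). UGT76E2 with OPDA in tga2-5-6 gave 0.70 and passed after quantile normalization (1.01, adjusted p = 0.0354) and without tga2-5-6 OPDA replicate 2 (1.02, adjusted p = 0.0284), when it was also lower with PPA1 than with OPDA (-1.29, adjusted p = 0.0148). UGT72B3 gave -1.30 with PPA1 in Col-0 (adjusted p = 0.105) and passed as lower without Col-0 PPA1 replicate 1, at -1.80 against solvent (adjusted p = 0.00958) and -1.39 against OPDA (adjusted p = 0.0349).

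A further 4 genes carry a UGT number only as a synonym and were not among the 43. UF3GT (UGT79B1), an anthocyanin glycosyltransferase gene, shared the direction of UGT78D1 with OPDA. It read 985, 812 and 1348 with OPDA in tga2-5-6 against 255, 568 and 290 with solvent (1.56 ± 0.50, adjusted p = 0.0596), and 609, 507 and 751 in Col-0 against 40.5, 142 and 196 (2.56 ± 0.50, adjusted p = 0.00575). GT72B1 (UGT72B1), whose product glucosylates chlorinated phenols, rose with PPA1 in both genotypes, by 1.37 ± 0.31 in tga2-5-6 (adjusted p = 0.0242) and 1.53 ± 0.31 in Col-0 (adjusted p = 0.0132), and with OPDA in tga2-5-6 (1.07 ± 0.31, adjusted p = 0.0368). SGT (UGT80A2) passed in none, and AT5G54010 (UGT79B6) was removed by the filter.

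Genes of the pathways around the UGTs could be followed only in part, since few had a named probe set. Tested were 1 of 22 genes for the supply of UDP-sugars, 1 of 15 for conjugate transport, 1 of 12 of the flavonoid pathway, 2 of 17 of the phenylpropanoid pathway and 0 of 14 of glucosinolate synthesis. In this set only the flavonoid gene passed, DFR, for dihydroflavonol reductase. It rose with OPDA in Col-0 (2.05 ± 0.45, adjusted p = 0.0113) and was lower with PPA1 than with OPDA there (-2.32 ± 0.45, adjusted p = 0.00686). Of the UGT73 genes set aside at the start, UGT73B5 read 222, 174 and 363 with PPA1 in tga2-5-6, against 816, 1523 and 2158 in Col-0 (-2.53 ± 0.36, adjusted p = 0.00174), and was higher with PPA1 than with OPDA in both genotypes. Among the 43, the genes that passed between the compounds all went the opposite way to UGT73B5, in a set formed without it.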

How the data were processed

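RNA was measured on 18 Affymetrix arrays, 3 per group, after One-Cycle biotin labelling, per the labels' protocols. The authors deposited linear intensities for each probe set. After trimming 2% at each end all arrays had a mean of 500, which shows that a scaling step had been applied. GCRMA is named in the submitters' processing notes, but its output is log2, which the deposited values are not, and their algorithm is not given in the sources used here. The 64 control features among 22810 were removed. Values under 1 were set to 1 and log2-transformed, and 21869 probe sets with at least 16 on at least 3 arrays were tested, with no further normalization.

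A group-means model over all arrays was fitted with limma 3.58.1 in R 4.3.3 (12 residual and 1.50 prior degrees of freedom). The 11 two-sided comparisons were adjusted by Benjamini-Hochberg over all probe sets, and the fit was tested on simulated data. Members, lists and tests were chosen with earlier results of these data known. Named are all genes that passed, the strongest of each family and those with a substrate on a list. Neighbours and genes with means under 16 are listed too. UGT71B5, UGT72B3 and UGT76E2 were added after their values were seen. Gene names come from the array annotation (1 gene for 13513 probe sets, several for 503), and all 43 symbols match TAIR10.1. Same-numbered arrays of different groups did not deviate together (residual correlations of -0.0539 to 0.0673, 0 of 45 above 0.1), so the numbers were not taken as pairs. No batch is labelled. Correlations were 0.900 to 0.935 within groups, and 0 of 153 array pairs were identical. Promoter and protein sequences were not analysed here.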

Additional observations from a re-analysis of the deposited data

Results flagged for a closer look

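UGT76E1 was picked out because its PPA1 arrays lay on opposite sides of the solvent arrays in the 2 genotypes. It read 6.25, 2.44 and 4.88 with PPA1 in tga2-5-6, against 32.0, 6.47 and 19.2 with solvent, and 6.53, 4.44 and 5.94 in Col-0, against 2.86, 4.36 and 3.37. The genotype difference of the response was -2.59 and did not pass in limma, and 14 of its 18 arrays were under 16.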

How the results depend on the processing

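Of 77 recomputed counts of passing UGT genes (quantile normalization, median centring, a floor of 16, no low-value filter, a variance trend, replicate number as a block, or the arrays of the comparison alone), 67 lay within 1.5 times the reported count. In the fits to the arrays of 1 comparison, which borrow no spread from other groups, counts were 4 for PPA1 in Col-0, 1 for PPA1 in tga2-5-6, 1 for PPA1 against OPDA in tga2-5-6, and 0 between genotypes under PPA1 and 0 under OPDA. With a floor of 16 they were 7 for PPA1 against OPDA in Col-0 and 2 between genotypes in control, and with the variance trend also 2 between genotypes in control. With the replicate block they were 1 between genotypes in control and 1 under OPDA, though the numbers were not taken as pairs in the main fit. No other count moved by more than 1.5 times. Leaving out 1 array at a time gave 4 to 8 genes for PPA1 in Col-0, 9 to 11 for OPDA in Col-0, 0 to 4 for PPA1 in tga2-5-6, 8 to 10 for OPDA in tga2-5-6, 3 to 5 for PPA1 against OPDA in Col-0 and 1 to 5 in tga2-5-6. Between genotypes it gave 0 to 1 in control, 2 to 3 under PPA1 and 1 to 3 under OPDA, and for the genotype difference of the response 0 to 1 (PPA1) and 0 (OPDA). Of 42 calls, 27 held without each array in turn, 22 under the other alternatives and 20 under all of them; 19 were lost in the fits to the arrays of 1 comparison, where fewer arrays estimate the spread. Of 6665 recomputed differences of the 43 genes, 0 reversed a call, 78 lost one and 42 gained one, 30 of these in the 16 genes that passed somewhere and 12 in the other 27. Each gene had 1 probe set, so another choice of probe set could not be made. Signal near 16 limits the size of changes in UGT76E12, UGT73D1 and UGT84A1.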
